A study of Mus musculus with 2 samples.

Results

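The 10 genes described here encode the core of the Hippo pathway in the mouse. They are the kinase genes Stk3, Stk4, Lats1 and Lats2, the coactivator genes Yap1 and Wwtr1, and the transcription factor genes Tead1, Tead2, Tead3 and Tead4. They were taken from 21883 protein-coding genes of the RefSeq table, and a peak was assigned to a gene when it overlapped the gene's mm10 span or the 20 kb on either side by at least 1 bp. These windows held 142 of 77295 ETS1 peaks and 129 of 63556 ETS2 peaks. Both libraries came from cultured endothelial cells of the aorta of wild-type mice, kept under 5% CO2 in a complete endothelial medium that held heparin, a growth supplement and 20% FBS. Chromatin was precipitated with 10 µg of an antibody against ETS1 in one library and against ETS2 in the other, and sequenced (ChIP-seq). Strain, age and the number of animals are not given in the sources used here. With 1 library per antibody and no input library analysed here, no difference between the lists can be set against replicate error, and a peak is a place where reads gathered rather than a shown binding site.

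In the Hippo pathway, STK3 and STK4 (also called MST2 and MST1) phosphorylate and activate LATS1 and LATS2. The LATS kinases phosphorylate YAP1 and WWTR1 (also called TAZ), which keeps these coactivators out of the nucleus. Coactivators that reach the nucleus bind TEAD factors, which contact DNA and switch on genes of growth, cytoskeleton and matrix. In endothelium the pathway responds to cell contact, shear stress and VEGF, and YAP1 and WWTR1 are known for their part in sprouting of vessels. ETS factors bind a GGAA core and TEAD factors bind GGAATG, so the letters of a TEAD site contain those of an ETS core.

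Peaks stood at the starts of most of these genes. The centre of a peak lay within 1 kb of a start for 8 of 10 genes in the ETS1 list (80%, 95% Wilson interval 49.02 to 94.3) and for 9 in the ETS2 list (90%, 59.6 to 98.2), where Stk3, Tead1 and Tead4 have no start in the promoter table and were read at either gene end. Over all protein-coding genes the shares were 38.9% and 40.1%. Among the 7 genes with a tabulated start both counts were 6, beside 38.4% and 40.4% of the 17491 such genes. Of Stk3, Tead1 and Tead4, 2 had an ETS1 peak and 3 an ETS2 peak at an end, beside 40.5% and 38.5% of the 4392 genes read that way. Reading every gene at either end gave 8 and 9 again, beside 39.4% and 39.9%. Both lists had a start peak at 8 genes, beside 28.9% of all genes. Tead1 was found in the ETS2 list alone, and Tead2 in neither, as were 50% of all genes. Within 500 bp the ETS1 count was 7 and the ETS2 count 8, beside 31.8% and 33.8% of all genes. Both lists then had a start peak at 6 genes, beside 22.0% of all genes, as Wwtr1 lost its ETS1 peak and Lats2 its ETS2 peak.

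The promoters of 5 genes overlapped a peak of at least 1 list, and they are printed with that of Tead2, which overlapped none, so that the sequence under the reads can be read directly. Each is the 300 bases from 250 before to 50 after a RefSeq start (GRCm38.p6, the assembly of mm10), written 5′ to 3′ on the gene's strand. Capitals mark each GGAA or TTCC and each GGAATG or CATTCC.

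Stk4, chr2:164073888-164074187, plus strand: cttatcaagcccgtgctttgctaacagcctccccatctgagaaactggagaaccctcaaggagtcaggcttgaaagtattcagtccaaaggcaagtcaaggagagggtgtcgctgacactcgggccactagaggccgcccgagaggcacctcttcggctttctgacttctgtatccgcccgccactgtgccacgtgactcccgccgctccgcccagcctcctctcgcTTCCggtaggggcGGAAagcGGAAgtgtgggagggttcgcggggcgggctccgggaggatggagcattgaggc

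Lats1, chr10:7680959-7681258, plus strand: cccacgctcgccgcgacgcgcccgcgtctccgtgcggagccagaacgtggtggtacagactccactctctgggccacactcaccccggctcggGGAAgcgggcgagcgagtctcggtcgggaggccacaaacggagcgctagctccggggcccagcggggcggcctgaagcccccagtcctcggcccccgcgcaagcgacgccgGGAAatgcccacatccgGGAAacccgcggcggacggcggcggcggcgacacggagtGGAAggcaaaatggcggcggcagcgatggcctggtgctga

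Yap1, chr9:8004547-8004846, minus strand: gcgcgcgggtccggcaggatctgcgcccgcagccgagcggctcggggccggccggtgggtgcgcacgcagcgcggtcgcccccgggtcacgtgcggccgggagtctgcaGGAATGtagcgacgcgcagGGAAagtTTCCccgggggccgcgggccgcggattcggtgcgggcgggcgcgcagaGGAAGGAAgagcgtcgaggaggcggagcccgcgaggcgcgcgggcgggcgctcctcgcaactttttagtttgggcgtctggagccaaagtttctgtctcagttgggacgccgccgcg

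Wwtr1, chr3:57575861-57576160, minus strand: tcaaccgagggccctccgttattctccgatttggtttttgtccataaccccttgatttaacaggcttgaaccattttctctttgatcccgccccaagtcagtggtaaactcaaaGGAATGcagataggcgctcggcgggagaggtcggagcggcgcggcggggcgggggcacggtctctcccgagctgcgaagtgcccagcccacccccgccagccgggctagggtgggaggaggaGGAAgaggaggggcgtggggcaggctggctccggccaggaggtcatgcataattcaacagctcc

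Tead3, chr17:28350756-28351055, minus strand: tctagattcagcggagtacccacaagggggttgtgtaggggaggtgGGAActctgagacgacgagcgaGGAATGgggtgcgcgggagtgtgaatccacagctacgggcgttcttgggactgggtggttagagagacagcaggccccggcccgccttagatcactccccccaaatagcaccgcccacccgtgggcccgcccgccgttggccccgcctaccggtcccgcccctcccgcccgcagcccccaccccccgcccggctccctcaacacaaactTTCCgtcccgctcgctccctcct

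Tead2, chr7:45215542-45215841, plus strand: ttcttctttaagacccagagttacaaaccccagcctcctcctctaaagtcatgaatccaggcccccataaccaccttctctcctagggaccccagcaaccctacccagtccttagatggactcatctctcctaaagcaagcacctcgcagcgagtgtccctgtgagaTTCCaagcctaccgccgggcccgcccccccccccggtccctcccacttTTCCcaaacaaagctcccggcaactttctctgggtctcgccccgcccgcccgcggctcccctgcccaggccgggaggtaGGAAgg

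Of the 7 genes with a promoter window, 4 had an ETS1 peak over a window (Stk4, Lats1, Yap1 and Tead3) and 5 had an ETS2 peak (the same genes and Wwtr1). Over all protein-coding genes with a window the shares were 16.1% and 18.1%. Counted from 1 at the 5′ end of the printed run, the ETS1 peak covered bases 136 to 300 of the Stk4 window and the ETS2 peak bases 230 to 300. The tract of Stk4 with TTCCGG and a pair of GGAA cores lay inside the ETS1 peak, and the GGAA pair also lay inside the ETS2 peak. The whole ETS1 peak of Lats1 lay within the printed window, at bases 72 to 248, with 3 GGAA cores, and the ETS2 peak covered bases 1 to 133, with 1. In Yap1 both peaks began upstream of the window and reached base 130 (ETS1) and base 164 (ETS2). The GGAATG of Yap1, at bases 110 to 115, lay inside both peaks. In Wwtr1 the ETS2 peak reached base 118 and so covered GGAATG at bases 115 to 120 only in part. In Tead3 the peaks reached only base 32 (ETS1) and base 54 (ETS2), short of GGAATG at bases 69 to 74.

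Both strands were searched for the ETS core GGAA, for its longer forms CCGGAA, CCGGAAGT and AGGAAG, for the TEAD form GGAATG, and for TGACTCA, an AP-1 form. All of these but the AP-1 form contain the core, so the counts overlap. GGAA was in all 7 genes' windows and in 96.5% of genes' windows over the whole table. CCGGAA was in 2 of 7 genes (Stk4 and Tead3), beside 16.7% of all genes, and on the printed strand in none. CCGGAAGT was in none of the 7, beside 4.31% of all genes, and TGACTCA in none, beside 5.95%. AGGAAG was in 4 (Lats2, Yap1, Wwtr1 and Tead2), beside 38.4%. GGAATG was in 4 (Lats2, Yap1, Wwtr1 and Tead3), beside 16.6%. A second Tead3 window, of the start at 28350600, held GGAATG or its reverse complement 3 times, at 123 and 114 bases before that start and just after it. One of these, CATTCC at bases 137 to 142, overlapped TTCCGG at bases 139 to 144. These matches are letters of the reference and not measured sites. The 11 windows of the 7 genes had a median of 67.7% G and C, beside 52.7% over all 32851 windows.

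**Figure D1:**
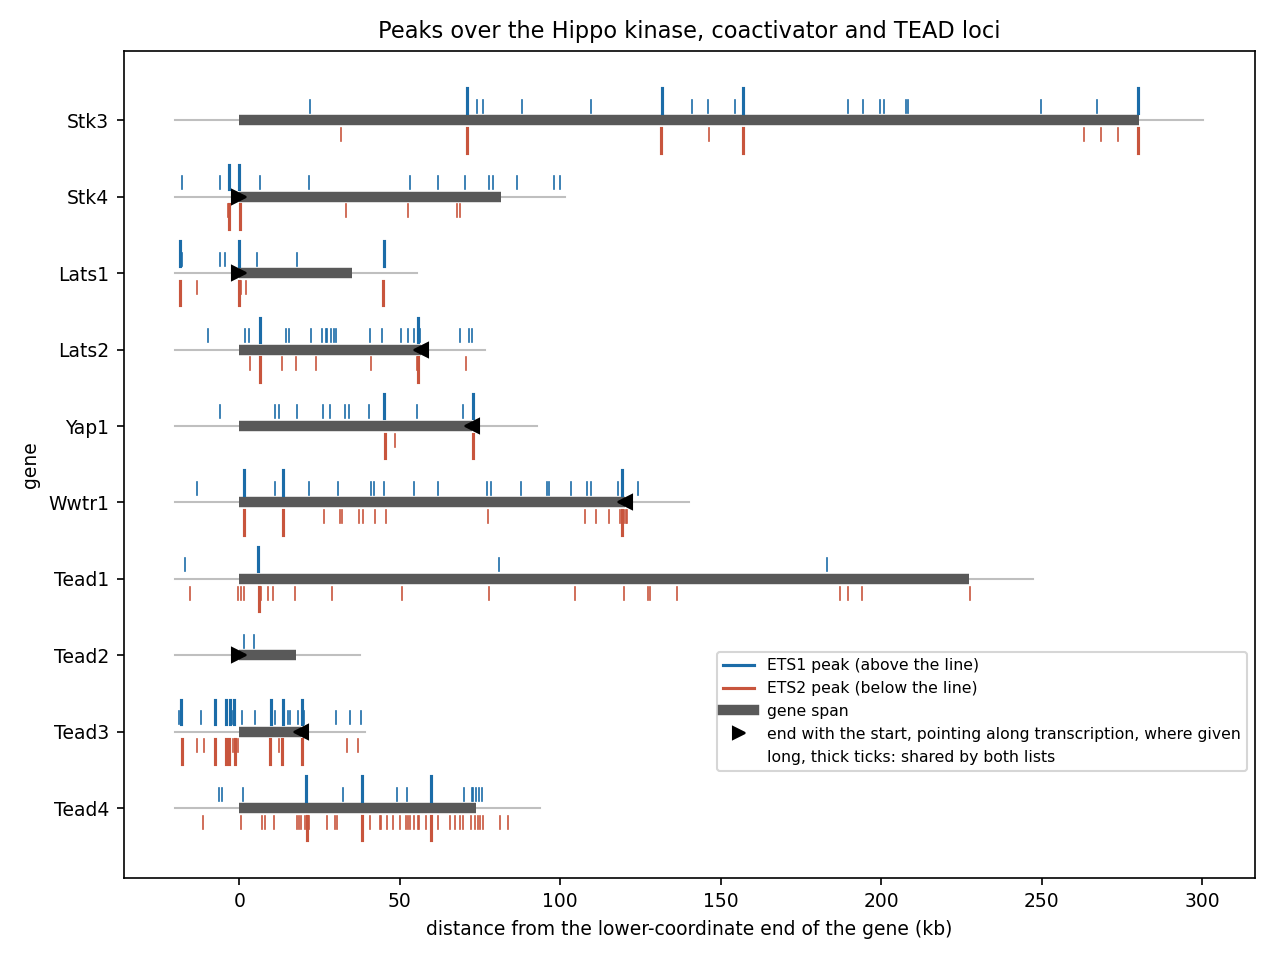
Positions of all peaks over the 10 genes, in kb from the lower-coordinate end of each gene, with the gene as a dark bar and 20 kb around it as a thin line. ETS1 peaks are ticks above and ETS2 peaks ticks below, long where both lists overlap. Ticks of both lists stand at a gene end in 8 genes, and Tead4 has 41 ETS2 ticks against 15 of ETS1.

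The loci also held more peaks for their length than most genes. The median over the 10 windows was 11.5 ETS1 and 7.91 ETS2 peaks per 100 kb, beside 3.14 and 2.47 over all protein-coding genes measured with the same 20 kb around them. All 10 windows held an ETS1 peak and 9 an ETS2 peak, beside 70.8% and 69.8% of all genes. The windows differed in length from 57.7 kb for Tead2 to 320.4 kb for Stk3, and the genes were longer than most, with a median of 73.2 kb beside 17.2 kb. Because peaks per Mb differ between chromosomes in both lists, each locus is given below beside the median of genes on its own chromosome. In that comparison 9 of 10 loci were above their chromosome's median for ETS1 and 7 for ETS2. The 7 include Yap1, which was nearly level with its median, at 2.663 beside 2.660. Percentiles below give the rank of a locus among all genes of its chromosome by peaks per 100 kb. A peak's place in the deposited order is the percentage of rows before the middle of its run of tied rows, with 0 at the top.

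**Figure D2:**
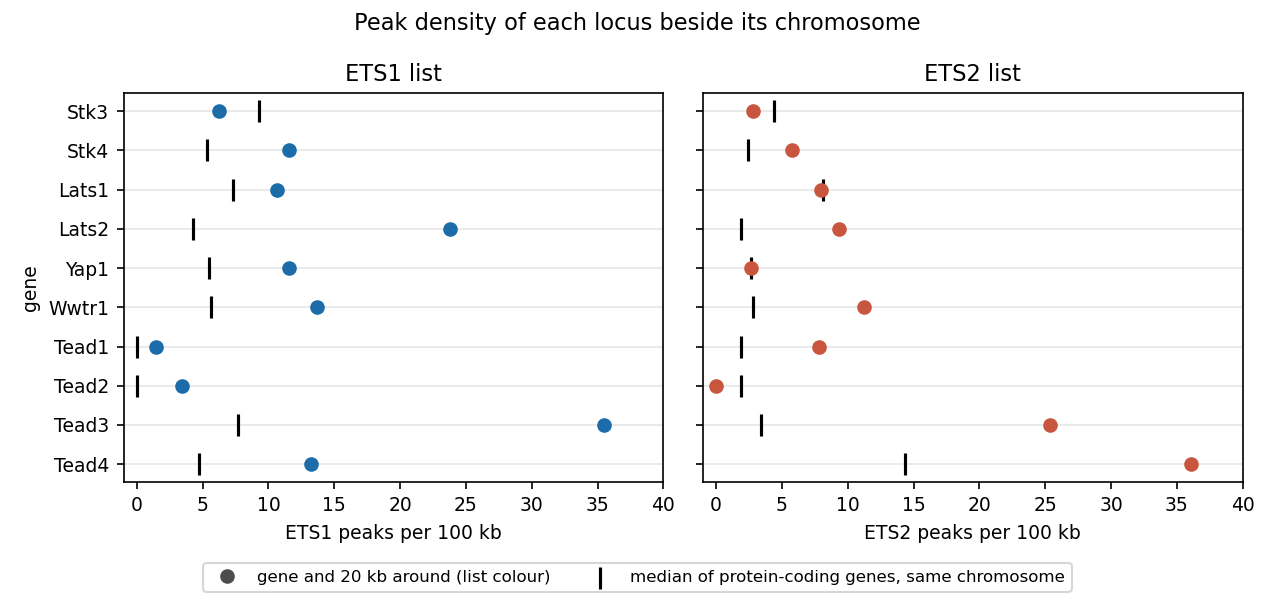
Peaks per 100 kb over each gene and 20 kb around it (coloured points), with the median of protein-coding genes on the same chromosome (black bars), for the ETS1 list at left and the ETS2 list at right. Tead3 is high in both lists at 35.5 and 25.4, and Tead4 reaches 36.1 in the ETS2 list, where its chromosome's median is 14.3.

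Of the upstream kinase genes, Stk3 was the sparser. Stk3 (chromosome 15, 34875499 to 35155882) is the longest of the 10 genes and held 20 ETS1 and 9 ETS2 peaks. At 6.24 and 2.81 peaks per 100 kb it lay below its chromosome's medians of 9.25 and 4.37, at percentiles 37.4 and 37.0. It was the only one of the 10 below the median for ETS1. Its upper end nevertheless carried a shared pair, an ETS1 peak at 35155343 to 35155519 and an ETS2 peak at 35155413 to 35155599, with centres 75 bp apart. A further 3 shared pairs lay inside the gene. No protein-coding gene reached into its window.

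Stk4 (chromosome 2, 164074113 to 164155524) held 14 ETS1 and 7 ETS2 peaks. These came to 11.5 and 5.77 per 100 kb against medians of 5.35 and 2.38, at percentiles 77.4 and 75.5. The ETS1 peak at its start (164074023 to 164074199) was centred 27 bp from the start, the shortest distance among the 10 genes, and the ETS2 peak (164074117 to 164074303) was centred 72 bp from it. The other shared pair of the window lay at the start of Tomm34, a gene of mitochondrial protein import whose span ends 2935 bp below Stk4, so it was counted in the window without lying in Stk4. On the other side Kcns1, a potassium channel subunit gene, held no peak within its span. An ETS1 peak of the window (164171961 to 164172137) was nevertheless centred within 1 kb of an end of Kcns1, and no ETS2 peak was.

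The LATS kinase genes differed in where their peaks lay. Lats1 (chromosome 10, 7681200 to 7716461) held 8 ETS1 and 6 ETS2 peaks, of which 6 and 4 lay in the neighbouring genes Pcmt1, Nup43 and Katna1. For ETS1 it was at 10.6 per 100 kb against a median of 7.31, at percentile 63.4. Nup43, a nuclear pore gene, held 2 of these ETS1 peaks and 1 ETS2 peak. The start of Lats1 lies within Pcmt1, a protein repair methyltransferase gene whose span ends at 7681337. The pair at the Lats1 start (7681030 to 7681206 and 7680905 to 7681091) therefore belongs to both genes and cannot be told apart between them. A second shared pair, 18395 bp (ETS1) and 18302 bp (ETS2) upstream inside Pcmt1, stood at 7.70% and 1.78% of the order, and another lay at the start of Katna1, which encodes the microtubule-severing protein katanin. The ETS2 peak at the Lats1 start stood early in its list, at 5.24% of the order, and the ETS1 peak at 27.8%. For ETS2 the locus was at 7.97 per 100 kb, close to its chromosome's median of 8.12, at percentile 49.3. Lats2 (chromosome 14, 57689662 to 57746212), which is also a target gene of YAP1, held 23 ETS1 and 9 ETS2 peaks, at 23.8 and 9.32 per 100 kb against medians of 4.30 and 1.90. This put it at percentiles 97.0 and 93.1, above the other kinase genes in both lists. Both of its annotated starts had an ETS1 peak within 1 kb. At the upstream start (57746123) a shared pair was centred 692 bp (ETS1) and 648 bp (ETS2) inside the gene, in the part that the annotation also gives to the predicted gene Gm52140.

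The coactivator genes had close values in the ETS1 list and distant ones in the ETS2 list. Yap1 (chromosome 9, 7931999 to 8004638) held 13 ETS1 peaks, at 11.5 per 100 kb against a median of 5.48, but 3 ETS2 peaks, at 2.66 against a median of 2.66. Wwtr1 (chromosome 3, 57455644 to 57575910) held 22 ETS1 and 18 ETS2 peaks, at 13.7 and 11.2 per 100 kb against medians of 5.67 and 2.82. Its percentiles were 84.7 and 92.5, beside 75.8 and 50.1 for Yap1. The difference between the antibodies at these loci rests on 1 library each and was not tested.

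At the start of Yap1 a single pair was found, at 8004717 to 8004893 (ETS1) and 8004683 to 8004869 (ETS2), with centres 29 bp apart and 209 and 180 bp upstream of the start. The ETS2 peak stood late in its list, at 82.9% of the order, and no ETS2 peak of Yap1 stood before 65.9%. The start of Wwtr1 was surrounded by 4 ETS2 peaks, centred 698 and 226 bp upstream and 332 and 974 bp downstream of the nearer of its 2 annotated starts. The last of these (57574809 to 57574995) was at 1.16% of the order and overlapped an ETS1 peak (57574822 to 57574998) centred 966 bp downstream, just inside the 1 kb limit. A further ETS1 peak, 2118 bp downstream, stood at 3.98% of its list and overlapped no ETS2 peak. Tm4sf4 reached into the Wwtr1 window and Cfap300 into that of Yap1, and neither held a peak inside these windows.

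**Figure D3:**
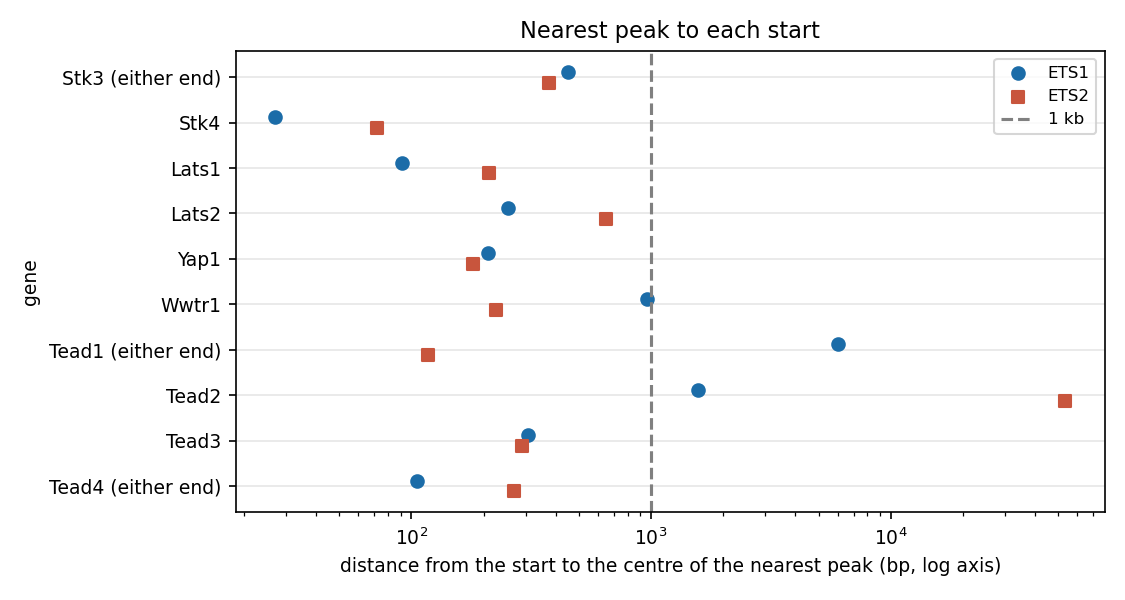
Distance in bp, on a log axis, from each gene's start (either end for Stk3, Tead1 and Tead4) to the centre of the nearest ETS1 peak (circles) and ETS2 peak (squares), with 1 kb as a dashed line. The points left of the line include both lists for 8 genes, Tead1 has only its ETS2 point there, and Tead2 has none.

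The TEAD genes spanned the whole range. Tead1 (chromosome 7, 112679356 to 112906784) held 4 ETS1 and 21 ETS2 peaks, at 1.496 and 7.85 per 100 kb. Its chromosome is sparse in ETS1 peaks, with a median gene at 0 and 18.1% of genes with an ETS1 peak at a start, and Tead1 still ranked at percentile 60.1 for ETS1. For ETS2 it ranked at 84.3, against a median of 1.86. The ETS2 peaks gathered at the lower end, with 9 of 21 within 20 kb of it. A pair of them lay 299 bp outside and 423 bp inside that end (112678964 to 112679150 and 112679686 to 112679872), at 8.51% and 14.8% of the order. Another, at 65.9% of the order, was centred 117 bp outside the upper end. The nearest ETS1 peak to an end was 6007 bp away and was the only shared site of the locus.

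Tead2 (45215792 to 45233468), on the same chromosome, had the fewest peaks of the 10. It held 2 ETS1 peaks, at 45217280 to 45217456 and 45220410 to 45220586, centred 1576 and 4706 bp downstream of the start. This came to 3.47 per 100 kb against a median of 0, at percentile 80.5, which is above Tead1. No ETS2 peak lay in its window, against a median of 1.86 per 100 kb, and the nearest to the start was 53544 bp away. None of its 4 protein-coding neighbours, Kash5, Dkkl1, Cd37 and Slc6a16, held a peak inside the window, so the whole 57.7 kb carried only these 2. On chromosome 7, where 20.7 was the ETS2 percentile of a gene with no peak, an empty window is common.

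Tead3 (chromosome 17, 28331671 to 28350805) was the densest of the 10 for ETS1, with 21 ETS1 and 15 ETS2 peaks in 59.1 kb. At 35.5 and 25.4 per 100 kb, against medians of 7.71 and 3.44, it ranked at percentiles 98.7 and 98.6, and 94 of 21883 genes had at least its density in both lists. Its window also covers close neighbours, and 8 ETS1 and 8 ETS2 peaks lay inside Fance, Rpl10a or Tulp1. The peaks earliest in either list among all those over the 10 genes lay there, at 28328592 to 28328768 (ETS1, 0.0582% of the order) and 28328532 to 28328718 (ETS2, 0.661%), inside Rpl10a, a ribosomal protein gene whose span ends 638 bp below that of Tead3. Within Tead3 and at its starts there were 9 ETS1 and 4 ETS2 peaks. The pair nearest the start at 28350805 (28351024 to 28351200 and 28351002 to 28351188) was centred 307 and 290 bp upstream, between Tead3 and Tulp1, whose spans lie 710 bp apart. A further 2 shared pairs lay inside Tead3.

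Tead4 (chromosome 6, 128227143 to 128300813) held 15 ETS1 and 41 ETS2 peaks, the most ETS2 peaks of the 10. The ETS2 list is dense over this whole chromosome, where the median gene had 14.3 peaks per 100 kb, and Tead4 at 36.1 ranked at percentile 90.9. For ETS1 it had 13.2 per 100 kb against 4.71, at percentile 84.4. It had 2.73 ETS2 peaks per ETS1 peak. This was near 2.44, the ratio of mean ETS2 to mean ETS1 peaks per 100 kb over genes of its chromosome. At its upper end an ETS2 peak (128300451 to 128300637) stood at 0.741% of the order, 269 bp inside the gene, and an ETS1 peak (128300830 to 128301006) lay 105 bp outside. They did not overlap each other. Inside the gene 3 shared pairs were found, the nearest of them 13902 bp (ETS2) from an end.

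Counted by role, the kinase windows held 10.6 ETS1 and 5.05 ETS2 peaks per 100 kb, the coactivator windows 12.8 and 7.69, and the TEAD windows 8.44 and 15.5. Leaving out each TEAD gene in turn moved the ETS2 value of that group between 9.37, without Tead4, and 24.3, without Tead1, and its ETS1 value between 4.79, without Tead3, and 16.5, without Tead1. Tead1, with the longest of these windows, lowered both. The ETS2 total of the 10 windows was 129 with Tead1 and Tead4 and 67 without them, and the ETS1 total 142 and 123. In 8 genes ETS1 peaks outnumbered ETS2 peaks, and in Tead1 and Tead4 the reverse held. On the chromosomes of these 2 genes the mean over genes of peaks per 100 kb was also higher for ETS2 than for ETS1. Tead1 had 5.25 ETS2 peaks per ETS1 peak, above its chromosome's ratio of these means, 1.96, and Tead4 had 2.73 beside 2.44. Tead2, on the same chromosome as Tead1, had 2 ETS1 peaks and no ETS2 peak.

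The share of peaks covered by both lists was higher at starts than elsewhere, over these windows as over the whole lists. Over the 10 windows 28 places were covered by both lists, which is 19.7% of the ETS1 peaks (14.0 to 27.0) and 21.7% of the ETS2 peaks (15.5 to 29.6), beside 16.1% and 19.6% of the whole lists. At starts 7 of 12 ETS1 peaks were shared (58.3%, 32.0 to 80.7) and elsewhere 21 of 130 (16.2%, 10.8 to 23.4). For ETS2 the counts were 7 of 17 (41.2%, 21.6 to 64.0) and 21 of 112 (18.8%, 12.6 to 27.0). Over the whole lists 39.8% of ETS1 and 38.7% of ETS2 peaks within 1 kb of a start of any protein-coding gene were shared. Of all other peaks 12.3% and 15.6% were. Both start shares of the 10 genes have intervals that hold the values of 39.8% and 38.7%. The intervals of both shares elsewhere likewise hold the whole-list values of 12.3% and 15.6%. Pairs at the starts of neighbours such as Tomm34 and Katna1 count as elsewhere for the 10 genes, and their part in these shares was not tested. The peaks of one library are not independent, and these intervals cover counting error only. A shared pair stood at a start or end of 7 genes, namely Stk3, Stk4, Lats1, Lats2, Yap1, Wwtr1 and Tead3. The centres of the 28 pairs were 6 to 174 bp apart, with a median of 62.5 bp. At least 1 shared peak lay in 9 of 10 windows, all but that of Tead2, beside 41.5% of all genes. These windows were also longer and held more peaks, with a median of 14.5 ETS1 and 9 ETS2 peaks. Over all genes the medians were 2 and 2, and the part of window length and peak number in this share was not tested.

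The row order of the deposited lists could be read only in steps. Rows fell into 203 runs for ETS1 and 130 for ETS2, within which chromosomes and positions ascend, so the peaks of a run were treated as tied. What the order ranks is not stated in the files. The median place over the 10 genes was 50.7% for ETS1 and 48.9% for ETS2. Peaks at starts stood earlier, at a median of 32.5% and 14.8%, than peaks inside the genes, at 50.7% and 48.9%. No such medians over the start peaks of all genes are given here. The first 1000 of 77295 ETS1 rows held 1 of the 142 ETS1 peaks of these windows, that of Rpl10a. The first 1000 of 63556 ETS2 rows held 3 of the 129 ETS2 peaks. These lay in the windows of Tead3 (the same Rpl10a site), Tead4 and Wwtr1. Counts this small do not set these windows apart from the whole lists.

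**Figure D4:**
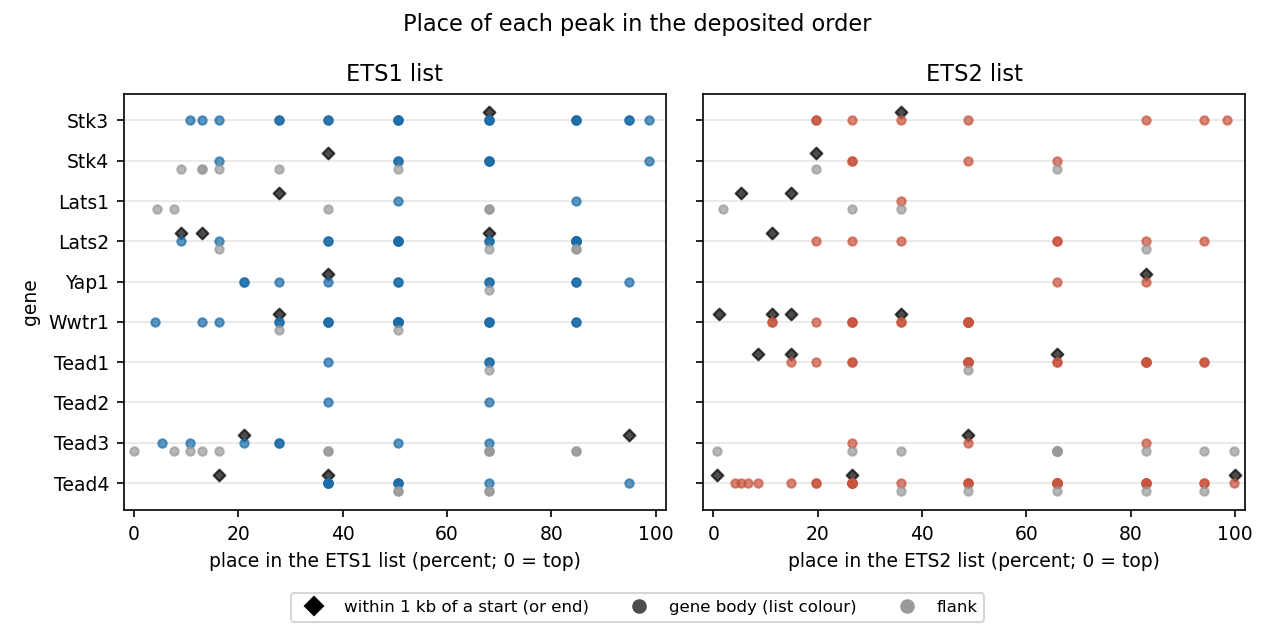
Place of every peak over the 10 genes in the deposited order, in percent of the list from the top at 0, for ETS1 at left and ETS2 at right. Diamonds are peaks within 1 kb of a start (or an end for Stk3, Tead1 and Tead4), coloured circles peaks inside the gene and grey circles peaks in the flanks. In the ETS2 list the diamonds of Wwtr1, Lats1 and Tead4 reach the first 6%, and that of Yap1 stands at 82.9%.

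Most other genes of the pathway also had a start peak. In this list and those below, genes without a tabulated start were read at either gene end. Of 30 regulators and partners, 20 had an ETS1 start peak (66.7%, 48.8 to 80.8) and 21 an ETS2 start peak (70%, 52.1 to 83.3), with 17 in both, 3 in ETS1 alone, 4 in ETS2 alone and 6 in neither. Their median was 10.6 ETS1 and 5.41 ETS2 peaks per 100 kb, beside 3.14 and 2.47 over all genes. A shared peak was found for 20 of them, beside 41.5% of all genes. Over all genes the shares with a start peak were 38.9% (ETS1) and 40.1% (ETS2), with 28.9% in both lists and 50% in neither. Sav1, the scaffold of STK3 and STK4, and Mob1a and Mob1b, the activators of the LATS kinases, had both. The nearest peaks of Sav1 were 335 and 328 bp from a start. Wwc1 (KIBRA) and the kinase gene Taok1 had the ETS1 peak alone, and the kinase genes Taok2 and Taok3 the ETS2 peak alone. Nf2, which encodes the tumour suppressor merlin, and Amot, a YAP1-binding angiomotin on the X chromosome, had neither. The nearest ETS2 peak of Nf2 was 1065 bp from a start, just outside the limit. In peaks per 100 kb relative to the chromosome mean, the listed genes nearest Yap1 over the 2 libraries were Csnk1e and Stk38, and those nearest Wwtr1 were Amotl2 and Ywhaz (Euclidean distance of log2 values 0.157, 0.321, 0.434 and 0.456).

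Of 21 genes known as targets of YAP1, WWTR1 and TEAD factors, 14 had an ETS1 start peak (66.7%, 45.4 to 82.8) and 17 an ETS2 start peak (80.95%, 60.0 to 92.3), with 12 in both, 2 in ETS1 alone, 5 in ETS2 alone and 2 in neither. Their median was 11.0 ETS1 and 8.76 ETS2 peaks per 100 kb, and 16 had a shared peak, beside 41.5% of all genes. Over all genes 28.9% had a start peak in both lists and 50% in neither. Ccn2, a matricellular growth factor gene, Birc5, an inhibitor of apoptosis, and Myc had both. Ankrd1 and Angpt2, an angiopoietin gene, had the ETS1 peak alone, and Ccn1 and Nt5e the ETS2 peak alone. Of the target genes named here, Ccn2, Myc and Angpt2 have no tabulated start and were read at either end. The nearest ETS1 peak of Ccn1 was 1248 bp from its start. The receptor kinase gene Axl and Edn1, which encodes endothelin-1, had neither. This list includes Lats2 itself and shares Ajuba, Amotl2 and Ptpn14 with the list of regulators. As a reference for the cells, 3 of 13 endothelial marker genes had a start peak in each list, as did 2 (ETS1) and 3 (ETS2) of 5 smooth muscle, 1 and 2 of 4 fibroblast and 1 and 1 of 3 leukocyte marker genes, beside 38.9% and 40.1% of all genes. Peaks do not measure expression, so the labelled cell type was not checked by them.

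**Figure D5:**
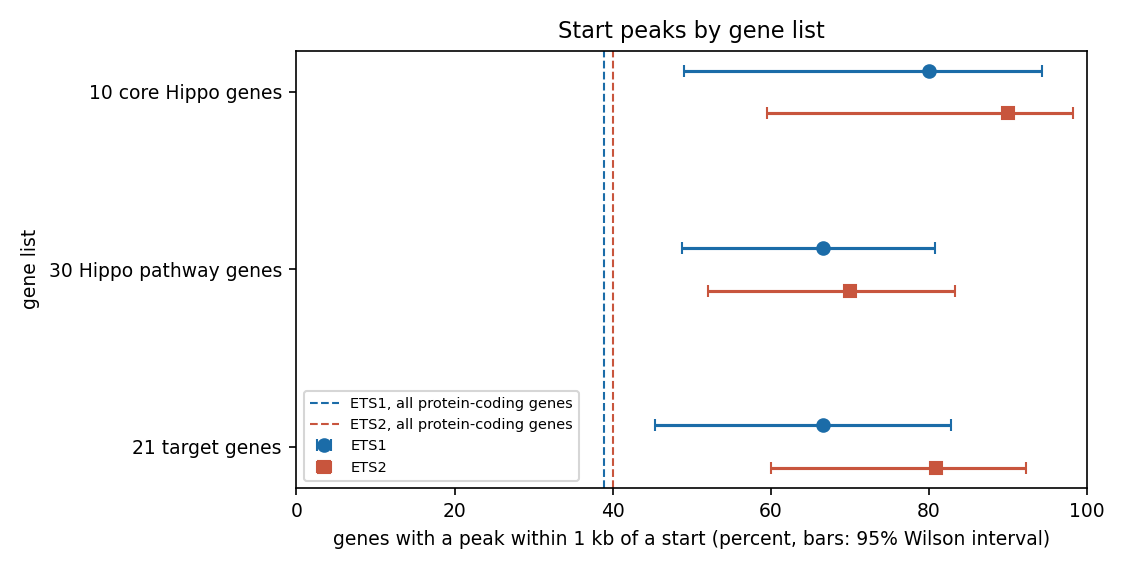
Share of genes with a peak within 1 kb of a start (either end where no start is given) for the 10 genes, 30 other Hippo pathway genes and 21 target genes, with 95% Wilson intervals as bars and the share over all protein-coding genes as dashed lines. The 10 genes are at 80% (ETS1) and 90% (ETS2), beside 38.9% and 40.1% of all genes.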

How the data were processed

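Peak positions were taken from the 2 lists deposited by the authors, 1 per antibody. Per the file headers, HOMER findPeaks ran with its factor setting, with mm10 in the names of the tag directories and no control directory, at a false discovery rate of 0.01 and 30 tags per peak. Per the submitters' processing notes, CASAVA 1.8 and Bowtie2 were also used, and mm9 is named beside mm10. The score that the authors deposited with each peak is 1 in every row and was not used. The headers give 143778022 (ETS1) and 134607908 (ETS2) tags, with 1.89% and 1.53% inside peaks. The fixed widths are 177 and 187 bp, apart from 1 peak in each list. A single tag threshold applied to the whole genome. Reads per chromosome were not analysed here, and reads gathered by open chromatin were not separated from those drawn by either factor.

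Gene spans and promoter sequences came from RefSeq (GRCm38.p6). Of 21883 protein-coding genes 17491 had a start in the promoter table, and 7 of the 10 genes did. The others were read at either end. Coordinates are 1-based. Intervals are Wilson intervals from scipy 1.17.1. No test was run, since each antibody has 1 library. Counting of overlaps and motifs was tested on simulated data. The genes and lists were chosen with earlier results of these data known. All 10 genes are named. So are protein-coding neighbours and, in list order, up to 3 listed genes with start peaks in both lists and up to 2 in each other class. Alternatives changed the flank, the start distance, the overlap and the part of the order used.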

Additional observations from a re-analysis of the deposited data

How the results depend on the processing

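No paired analysis was possible because each antibody has 1 library. The totals of 142 ETS1 and 129 ETS2 peaks stayed within 1.5 times under 10 kb or 50 kb around the genes, the gene span alone and the use of peak centres. Single loci moved more. The gene span alone left Tead3 with 8 ETS1 and 3 ETS2 peaks (41.8 and 15.7 per 100 kb of the span), Lats1 with 3 and 2, and Stk4 with 8 ETS1 peaks. With 50 kb around, Tead3 had 32 ETS1 peaks, Yap1 6 ETS2 peaks and Tead2 1. With the first 50% of rows the totals of all 10 windows were 71 and 68. With whole runs of the order only, an alternative chosen after the data were seen, they were 61 and 58. These subsets hold fewer peaks by construction. Without Tead1 and Tead4, also chosen afterwards like the other settings that leave out TEAD genes, the ETS2 total was 67. Genes with a start peak in both lists went from 8 to 5 with the first 50% of rows and to 5 with whole runs, where the shares over all genes were 18.3% and 16.8% in place of 28.9%. Stk3 lost its ETS1 peak there, and Yap1 and Tead3 their ETS2 peaks. The ETS1 and ETS2 counts each stayed between 7 and 9 under every start setting run, while the shares over all genes went from 27.6% to 44.9% (ETS1) and from 27.5% to 45.2% (ETS2). Shared ETS1 peaks numbered 43 (30.3%, beside 23.6% of the whole list) with centres within 500 bp and 21 (14.8%, beside 11.1%) at an overlap of 50% of both peaks. With the first 50% of rows of both lists 12 were shared, 16.9% of the ETS1 peaks kept in the windows. With whole runs 12 were shared, 19.7% of those kept, beside 19.7% in the main setting. Shares over all peaks of these subsets are not given here. CCGGAA was on the given strand in 0 of the 7 genes in place of 2. Depth limits the lists through the threshold of 30 tags, beside 12.7 and 12.5 tags expected per peak, so a gene without a peak may hold a weaker gathering of reads.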

Other observations

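Over all 32851 promoter windows of the table, the ETS form CCGGAA was in 42.1% of the 1666 windows that overlapped a peak of both lists and in 10.6% of the 26562 that overlapped none. For CCGGAAGT the shares were 15.1% and 2.26%. AGGAAG went the other way, with 28.8% and 36.2%, as did the TEAD form GGAATG, with 10.9% and 15.4%, and the AP-1 form TGACTCA, with 2.34% and 5.59%. The bare core GGAA was in 95.7% and 96.0%. The windows with both peaks had a median of 63.8% G and C and 25 CpG, and those with none 50.7% and 5, and the part of base composition in these shares was not tested. Of the 4 genes described here with a promoter window under both lists, Stk4, Lats1, Yap1 and Tead3, CCGGAA was found in Stk4 and in a second window of Tead3 that overlapped no peak.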
